A study of Mus musculus with 768 samples.

Results

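Nr4a1, Nr4a2 and Nr4a3 make up the NR4A family of nuclear receptors, 3 of the 24489 genes that the count table lists by symbol, and they were followed in single nuclei of mouse striatum. The members were the rows under these symbols. The study sorted nuclei into 768 wells, and each of 2 genotypes filled 1 plate of the same size. The genotypes were Oprm1-Cre:H2BG and Slc32a1-Cre:H2BG. All mice were untreated and of the C57BL/6 background, and both genotypes carried H2BG. The Cre drivers are named after the mu opioid receptor gene, a marker of patch neurons, and the vesicular GABA transporter gene, which all GABAergic neurons use. The labels give neither age nor sex and name no animals.

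NR4A proteins are transcription factors that bind DNA without a known classical hormone, so their amount is set mainly by transcription of their genes. In many cells all 3 genes are immediate early genes, switched on within minutes by calcium and cAMP signals through CREB bound at cAMP response elements. In the striatum Nr4a1 (Nur77) has 2 reputations: dopamine and antipsychotic drugs change its transcript in spiny projection neurons, and a reporter driven by Nr4a1 labels the patches, or striosomes, which lie embedded in the larger matrix. Nr4a2 (Nurr1) is best known for the development and upkeep of midbrain dopamine neurons, and Nr4a3 (Nor1) is an activity-induced relative.

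The positions of the genes in mm10, from GENCODE vM21, are as follows. Nr4a1 (ENSMUSG00000023034) lies at chr15:101254269-101274795 on the plus strand, with 3509 exonic bases. Nr4a2 (ENSMUSG00000026826) lies at chr2:57106830-57124003 on the minus strand, with 4059 exonic bases. Nr4a3 (ENSMUSG00000028341) lies at chr4:48045153-48086447 on the plus strand, with 5987 exonic bases. No other annotated gene overlaps any of the 3, so their reads have no overlapping gene to be shared with.

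The promoters are shown because all 3 carry the core of the cAMP response element, the sequence through which activity is known to reach these genes. The sequences are RefSeq windows of GRCm38.p6, from 250 bases before to 50 after the annotated start, and the capitals mark every TGACG or CGTCA, which are the same core read on either strand. The Nr4a1 window is chr15:101266596-101266895 (plus strand) and starts inside the GENCODE gene span. The Nr4a2 window is chr2:57123954-57124253 (minus strand), and the Nr4a3 window is chr4:48045055-48045354 (plus strand).
Nr4a1: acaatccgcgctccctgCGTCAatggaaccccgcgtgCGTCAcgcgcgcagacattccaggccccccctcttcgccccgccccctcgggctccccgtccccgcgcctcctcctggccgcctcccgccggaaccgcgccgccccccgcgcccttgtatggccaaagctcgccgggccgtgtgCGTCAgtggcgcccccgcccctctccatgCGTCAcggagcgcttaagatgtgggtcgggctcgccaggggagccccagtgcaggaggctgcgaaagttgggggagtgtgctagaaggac
Nr4a2: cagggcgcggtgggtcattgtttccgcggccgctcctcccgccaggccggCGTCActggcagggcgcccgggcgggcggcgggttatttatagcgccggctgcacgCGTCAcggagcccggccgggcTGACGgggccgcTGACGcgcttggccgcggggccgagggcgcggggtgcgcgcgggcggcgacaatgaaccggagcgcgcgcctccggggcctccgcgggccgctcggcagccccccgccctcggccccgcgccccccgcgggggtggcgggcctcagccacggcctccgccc
Nr4a3: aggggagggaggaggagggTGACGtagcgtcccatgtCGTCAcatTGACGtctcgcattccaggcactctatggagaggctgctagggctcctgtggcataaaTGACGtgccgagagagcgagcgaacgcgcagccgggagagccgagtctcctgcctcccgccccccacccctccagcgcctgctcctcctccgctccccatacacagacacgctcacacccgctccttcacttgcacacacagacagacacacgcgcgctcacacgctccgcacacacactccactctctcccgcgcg
Each window holds 4 cores, and none holds the full palindrome TGACGTCA. All 12 cores lie before the start, and those of Nr4a1 that are nearest to it begin 69 and 40 bases away. The motif was not rare by itself: 20.8% of 32851 promoter windows held at least 1 core and 1.79% held the palindrome, but 0.231% held 4 or more. A match describes letters and is not evidence of a bound site.

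Wells were kept at 1000 or more detected genes and 20000 or more gene reads, which left 736 nuclei and removed 29 Oprm1-Cre and 3 Slc32a1-Cre wells. Depth was similar, with a median of 169398 reads per Oprm1-Cre nucleus (22727 to 581313) and 175337 per Slc32a1-Cre nucleus (34513 to 487842). Nuclei were called D1-like or D2-like, after the dopamine receptor of the direct and the indirect pathway, from 7 marker genes of each. Of 495 D1-like nuclei, 300 came from the Oprm1-Cre plate and the others from the Slc32a1-Cre plate. The D2-like nuclei were 24 on the Oprm1-Cre plate and several times as many on the Slc32a1-Cre plate. The remaining nuclei were 17 Oprm1-Cre and 21 Slc32a1-Cre undecided projection neurons, and 14 and 16 interneuron-like nuclei. Drd1, listed as Drd1a, stood at 1829 CPM (counts per 1000000 reads of the summed nuclei) in the Oprm1-Cre and 2171 CPM in the Slc32a1-Cre D1-like sum, and Adora2a, a D2 marker, at 17.1 and 15.5 CPM. Y-linked reads were found in 91% of Oprm1-Cre nuclei and 0% of Slc32a1-Cre nuclei, so plate, sex and genotype cannot be told apart. With 1 plate per genotype no test between plates was made, and every interval below covers the counting of reads or of nuclei only.

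Nr4a1 was the only member read often enough to be followed, and its summed level was higher on the Oprm1-Cre plate in both classes of projection neuron. Among D1-like nuclei it stood at 83.5 CPM for Oprm1-Cre (exact 95% Poisson interval 81.13 to 85.97) and at 14.97 CPM for Slc32a1-Cre (13.7 to 16.3). A read of Nr4a1 was found in 36% of 300 D1-like Oprm1-Cre nuclei (exact Clopper-Pearson interval 30.6 to 41.7) and in 25 D1-like Slc32a1-Cre nuclei, 12.8% of them (8.47 to 18.3). After each nucleus was thinned to 50000 reads the shares were 30.5% and 9.79%. The intervals of the plates overlapped neither for the level nor for the share.

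Most nuclei had no Nr4a1 read at all. The lowest and the median level were 0 CPM in all 4 combinations of plate and class. Among the D1-like nuclei with a read, the level ran from 4.37 to 1302 CPM with a median of 93.8 CPM for Oprm1-Cre, and from 4.37 to 796 CPM with a median of 51.9 CPM for Slc32a1-Cre. The ranges overlapped almost entirely. The 30 D1-like nuclei with the most reads held 78.2% of all Nr4a1 reads of that class on the Oprm1-Cre plate, and the top 20 held 98.9% on the Slc32a1-Cre plate. In the wells left out by the filter, 1 read of Nr4a1 was found among 22834 reads of the Oprm1-Cre plate and 0 among 25157 of the Slc32a1-Cre plate.

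Among D2-like nuclei Nr4a1 stood at 94.8 CPM for Oprm1-Cre (85.6 to 104.7) and at 36.4 CPM for Slc32a1-Cre (34.3 to 38.7). The reads came from 8 of 24 Oprm1-Cre nuclei (33.3%, 15.6 to 55.3) and from 26 Slc32a1-Cre nuclei, 17.4% of them (11.7 to 24.5). Here the intervals of the shares overlapped, although those of the levels did not. Where the gene was read, Oprm1-Cre nuclei ran from 9.57 to 575 CPM with a median of 264.2 CPM, and Slc32a1-Cre nuclei from 4.75 to 989 CPM with a median of 115.4 CPM.

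Across all classes the summed level fell in the order D2-like Oprm1-Cre, D1-like Oprm1-Cre, undecided Slc32a1-Cre (47.4 CPM, 7 of 21 nuclei), D2-like Slc32a1-Cre, undecided Oprm1-Cre (31.1 CPM, 6 of 17), interneuron-like Oprm1-Cre (24.3 CPM, 3 of 14), D1-like Slc32a1-Cre and interneuron-like Slc32a1-Cre (4.15 CPM, 1 of 16). For every pair of neighbours in this order the intervals of the shares of nuclei overlapped, so the order of neighbours is not firm. The Poisson intervals of the levels lay apart for some of these pairs, but they do not cover the spread between nuclei. The D1-like Slc32a1-Cre nuclei stood lowest among the projection neurons.

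**Figure D1:**
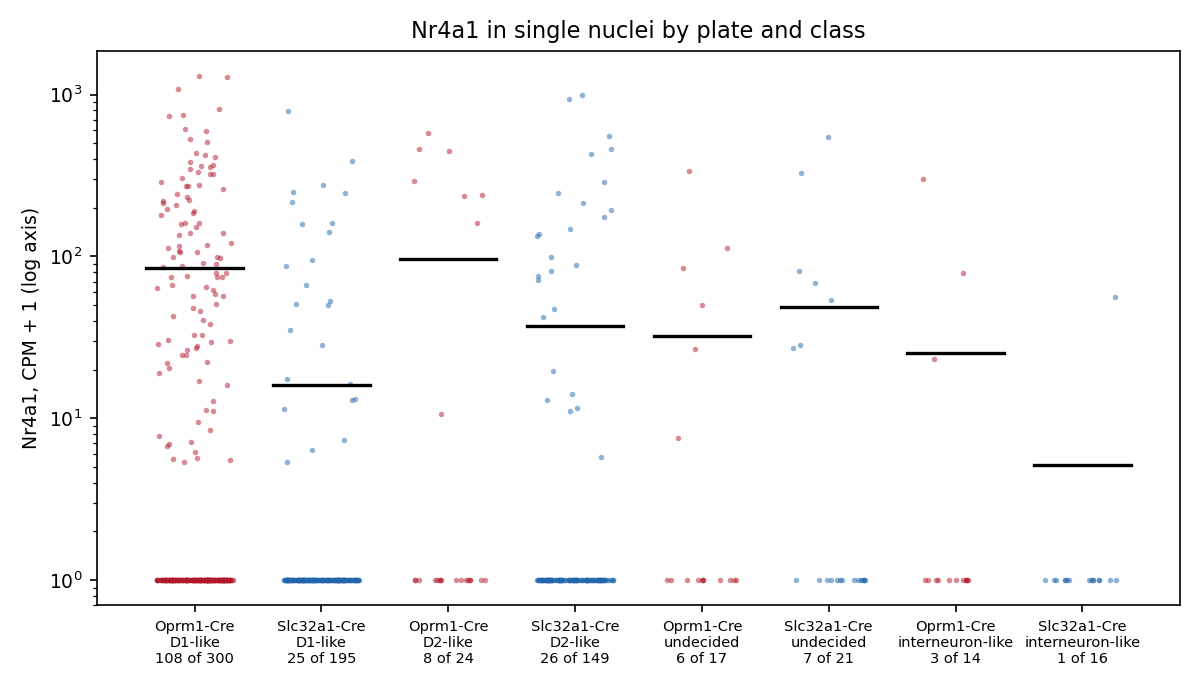
Nr4a1 in every kept nucleus, as CPM + 1 on a log axis, by plate and class; each point is a nucleus, points at 1 have no read, black lines are the level in summed reads plus 1, and the labels give nuclei with a read. The D1-like nuclei with a read reach 1302 CPM on the Oprm1-Cre plate and 796 CPM on the Slc32a1-Cre plate, and they make up 36% and 12.8% of nuclei.

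Nr4a2 and Nr4a3 were close to absent from these nuclei. Nr4a2 had 0 reads in 300 D1-like and 24 D2-like Oprm1-Cre nuclei, and among Slc32a1-Cre nuclei 1 read in the D1-like and 0 in the D2-like class. A count of 0 in 300 nuclei allows a share of nuclei with a read of up to 1% when the limit is set at 3 counts, and up to 1.22% by the exact interval. Nr4a3 had 37 reads in 7 D1-like Oprm1-Cre nuclei and 28 reads in 2 D1-like Slc32a1-Cre nuclei, which is 0.669 CPM (interval 0.471 to 0.922) for Oprm1-Cre and 0.791 CPM (interval 0.526 to 1.14) for Slc32a1-Cre. In D2-like nuclei it had 1 read in 1 Oprm1-Cre nucleus and 20 reads in 2 Slc32a1-Cre nuclei.

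The plates could not be told apart on Nr4a3, since the intervals overlapped in both classes. Per kilobase of exon, in the D1-like Oprm1-Cre sum, Nr4a1 stood at 23.8 CPM, Nr4a3 at 0.112 CPM and Nr4a2 at 0. Nr4a1 and Nr4a3 were read together in 3 of the 7 D1-like Oprm1-Cre nuclei with Nr4a3 and in 0 of the 2 D1-like Slc32a1-Cre nuclei. In D2-like nuclei they were read together in the 1 Oprm1-Cre nucleus with Nr4a3 and in 0 of the 2 Slc32a1-Cre nuclei. These counts are too small to say whether the members move together.

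The ratio between plates was taken as log2 with 5 CPM added to both sums, over genes with at least 5 CPM in either sum, and a gene was counted when it passed 1 or -1. In D1-like nuclei Nr4a1 was 5.58-fold higher on the Oprm1-Cre plate (5.10 to 6.12), a log2 ratio of 2.15. Thus 1 of the 3 members passed 1, beside 2.9% of the 11019 genes measured, and 15 genes had a higher ratio than Nr4a1. In D2-like nuclei it was 2.60-fold higher (2.31 to 2.92), a log2 ratio of 1.27. In that class 9.24% of 10974 genes were above 1 and 14.3% were below -1, so with 24 Oprm1-Cre nuclei the ratios scattered widely, and without the 3 nuclei with the most Nr4a1 in each sum the log2 ratio was 0.82, under the line. Neither Nr4a2 nor Nr4a3 reached 5 CPM.

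The patch genes, which include the mu opioid receptor gene Oprm1, the semaphorin gene Sema5b and the dynorphin precursor gene Pdyn, passed the line upward in D1-like but not in D2-like nuclei. Among D1-like nuclei 7 of 12 measured patch genes exceeded 1 and 0 lay under -1, beside 2.9% and 1.86% of all genes. Their median log2 ratio was 1.33, beside -0.00 over all genes. Oprm1 stood at 39.1 CPM in Oprm1-Cre and 2.82 CPM in Slc32a1-Cre nuclei, a log2 ratio of 2.50, and Sema5b at 209.6 and 37.6 CPM, a log2 ratio of 2.33. In D2-like nuclei 0 of 11 patch genes were above 1 and 2 were below (Tac1 and Tshz1), with a median of -0.49 beside -0.07 over all genes. Of all genes 9.24% were above 1 and 14.3% were below -1 there, so the count below was near the share of all genes. Tac1 was also 1 of the 7 D1 markers that defined the classes, so its values were not independent of the class call. The Oprm1-Cre driver is named after Oprm1, so the higher Oprm1 on that plate was not independent of the genotype. The same may hold for other genes of the patch list. Sema5b had a D2-like log2 ratio of 0.54, while Nr4a1 had 1.27. How far Nr4a1 and the patch genes differ between classes was not tested.

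The 7 matrix genes ran the other way in D1-like nuclei. In that class 4 of 7 were below -1, beside 1.86% of all genes, with a median of -1.31. Id4, an inhibitor of helix-loop-helix factors, stood at 22.2 CPM in Oprm1-Cre nuclei and 154.1 CPM in Slc32a1-Cre nuclei.

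The rapid immediate early genes, a list of 23 that holds no Nr4a gene, were split in sign between plates. Among D1-like nuclei 8 of 18 measured members had a positive log2 ratio, up to 0.76 for the clock gene Per1, and 10 a negative one. In that class 0 exceeded 1 and 2 lay under -1, beside 2.9% and 1.86% of all genes, and the median was -0.34. The 2 were Fos, an AP-1 subunit, with 32 reads (0.579 CPM) from 1 Oprm1-Cre nucleus and 641 reads (18.1 CPM) from 14 Slc32a1-Cre nuclei, and Dusp1, a MAP kinase phosphatase, with 20.2 and 63.8 CPM. Arc, a synaptic protein induced by activity, stood at 39.1 and 54.2 CPM, a log2 ratio of -0.42. In D2-like nuclei 1 of 19 measured members was above 1 (Tiparp, 1.62) and 6 were below, with Npas4, a neuron-specific activity factor, lowest at -2.76. Of all genes 9.24% were above 1 and 14.3% were below -1 in that class. Nr4a1 was thus higher on the plate where Fos, Dusp1 and Npas4 had lower values, and its D2-like log2 ratio of 1.27 stood beside medians of -0.72 for the immediate early and -0.49 for the patch genes.

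The later activity genes, secreted and synaptic products that follow the first wave, were near 0 in D1-like nuclei, where 0 of 7 measured members passed either line, with a median of -0.18. In D2-like nuclei 1 of 7 was below -1 (Rgs2, -1.23), which equals the 14.3% of all genes there. Among the transcription factors that induce Nr4a genes, CREB, its coactivators, MEF2 and SRF, 0 of 9 passed either line in D1-like nuclei, and 1 of 9 was above 1 in D2-like nuclei (Crem, 1.59), near the 9.24% of all genes.

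The retinoid X receptors, which pair with Nr4a1 and Nr4a2 proteins on DNA, did not pass either line. In D1-like nuclei the log2 ratios were 0.47 for Rxrg, 0.27 for Rxrb and -0.58 for Rxra. Rxrg, the form typical of the striatum, stood at 259.1 CPM in Oprm1-Cre and 186.1 CPM in Slc32a1-Cre nuclei, so the partner transcript was present in the class and plate where Nr4a1 was high. In D2-like nuclei the log2 ratios were 0.87 for Rxrg, 0.47 for Rxrb and -0.01 for Rxra. Among 13 other nuclear receptors 10 were measured, and 0 of 10 passed a line in either class. Their log2 ratios ran from -0.53 (Nr1d1) to 0.41 (Nr3c2) in D1-like nuclei and from -0.74 (Rarb) to 1.0 (Rora, just under the line) in D2-like nuclei. The difference of Nr4a1 between plates was larger than that of each measured receptor of these lists in both classes, but in D2-like nuclei its value without the 3 top nuclei of each sum, 0.82, lay under those of Rxrg and Rora.

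**Figure D2:**
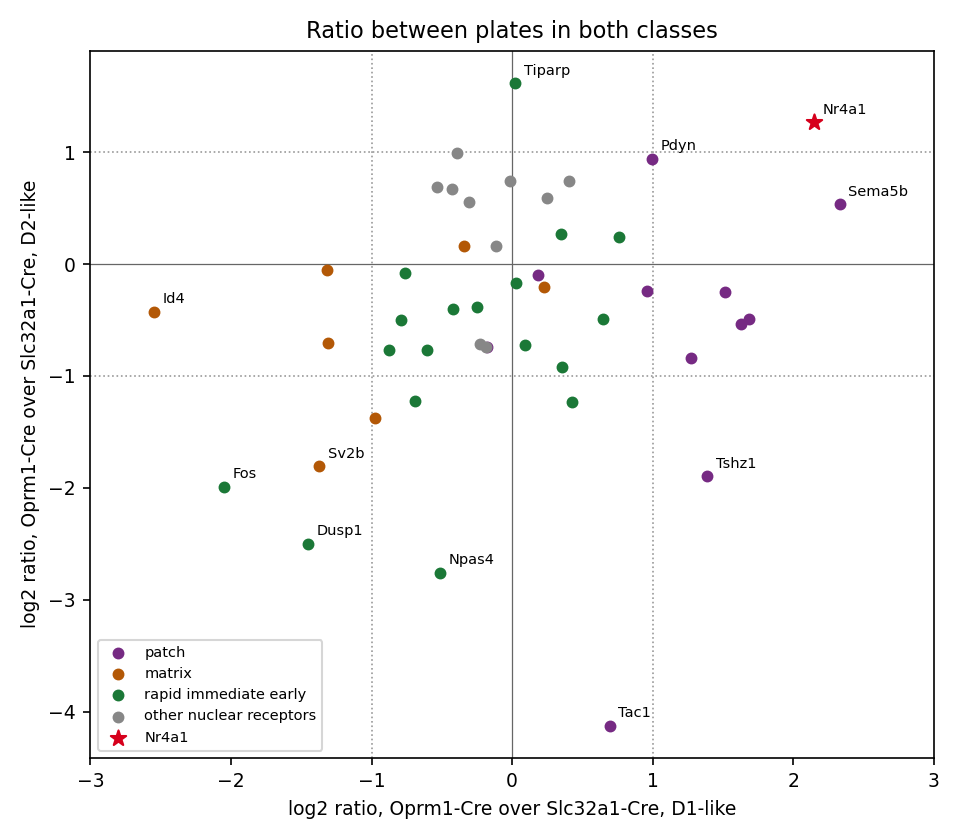
Log2 ratio between plates (Oprm1-Cre over Slc32a1-Cre) in D1-like nuclei (horizontal) and in D2-like nuclei (vertical), 1 point per gene measured in both classes, coloured by list, with dotted lines at 1 and -1. Nr4a1 (star) is at 2.15 and 1.27, while Sema5b is at 2.33 and 0.54 and Fos is at -2.05 and -1.99.

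Within a plate, where sex and genotype are shared, D1-like and D2-like nuclei were compared. On the Oprm1-Cre plate the level of Nr4a1 was 83.5 CPM for D1-like and 94.8 CPM for D2-like nuclei, a log2 ratio of -0.17, which became 0.77 without the 3 nuclei with the most Nr4a1 in each sum. On the Slc32a1-Cre plate it was 14.97 CPM for D1-like and 36.4 CPM for D2-like nuclei, a log2 ratio of -1.05. This passed -1, beside 2.02% of 10891 genes below -1 and 3.5% above 1 in that comparison, and it became -0.78 without the 3 top nuclei of each sum. Arc (54.2 and 95.96 CPM), Fos (18.1 and 38.9 CPM) and Npas4 (22.1 and 53.4 CPM) were also lower in D1-like than in D2-like Slc32a1-Cre nuclei, and Npas4 passed -1 with -1.11. On the Oprm1-Cre plate 16.2% of 11112 genes were above 1 and 6.61% below -1 in the same comparison, so little can be read from 24 D2-like nuclei.

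To ask whether Nr4a1 went with patch identity or with activity, its Spearman correlation with each gene was taken over the nuclei of a class within a plate, on log2(CPM + 1), for genes with a read in at least 10% of nuclei. The coefficients describe sparse counts of nuclei that share a plate, and all were modest. The D1-like nuclei of each plate leaned mostly 1 way between patch and matrix, so a rho within a plate may understate a link with patch genes. A gene was counted as above when its rho exceeded the 95th percentile of all genes tested in that group of nuclei. By construction about 5% of genes do: 5.01% of 9703 in D1-like Oprm1-Cre nuclei, 5% of 9338 in D1-like Slc32a1-Cre nuclei and 5% of 9135 in D2-like Slc32a1-Cre nuclei.

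The count of genes above was higher for the rapid immediate early list than for the patch list in all 3 larger groups of nuclei with all reads, but in D1-like Slc32a1-Cre nuclei thinned to 50000 reads it was 6 of 12 against 5 of 9, with median rho values of 0.14 and 0.12. In D1-like Oprm1-Cre nuclei 7 of 11 tested immediate early genes were above, with a median rho of 0.15, against 1 of 12 patch genes, with a median of 0.05, and 0.03 over all genes. In D1-like Slc32a1-Cre nuclei the counts were 6 of 12 and 1 of 10, with medians of 0.14 and 0.08, beside -0.00 over all genes. In D2-like Slc32a1-Cre nuclei they were 10 of 14 and 1 of 8, with medians of 0.21 and 0.08, and 0.00 over all genes. The matrix genes had 0 of 7 above in each of the 3 groups, with medians of 0.03, -0.05 and -0.02.

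Arc had the highest rho with Nr4a1 of all tested genes in D1-like Oprm1-Cre nuclei (0.28), the third highest in D1-like Slc32a1-Cre nuclei (0.34) and the second highest in D2-like Slc32a1-Cre nuclei (0.39). Egr1, a zinc finger factor and a standard activity marker, had 0.16, 0.19 and 0.40, and was first of all genes in D2-like Slc32a1-Cre nuclei. Egr4 had 0.16, 0.22 and 0.37 in the same order, so Arc, Egr1 and Egr4 were above in all 3 groups, as was Dusp1 (0.18, 0.19 and 0.15). Npas4 and the AP-1 gene Junb had unlike values on the plates, a difference that was not tested. Npas4 had 0.11 in D1-like Oprm1-Cre nuclei and 0.41 in D1-like Slc32a1-Cre nuclei, where it was first of all genes. Junb had 0.04 and 0.34 in the same groups. At the low end of the list were Tiparp (0.01) in D1-like Oprm1-Cre nuclei and Gadd45b (-0.11) in D1-like Slc32a1-Cre nuclei, and Gadd45b had 0.14 in D1-like Oprm1-Cre nuclei.

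Most patch genes lay below the 95th percentile, and some lay close to it. In D1-like Slc32a1-Cre nuclei 8 of 10 had a positive rho, and Nnat stood at percentile 94.7 of all genes tested, Kremen1 at 92.1, Sema5b at 89.7 and Tshz1 at 87.6. In D1-like Oprm1-Cre nuclei 10 of 12 were positive, and Nnat stood at percentile 91.3 and Sema5b at 50.7. Oprm1 had a rho of 0.05 in D1-like Oprm1-Cre nuclei and fell under the 10% filter on the Slc32a1-Cre plate. Sema5b had 0.03 in D1-like Oprm1-Cre nuclei, 0.09 in D1-like Slc32a1-Cre nuclei and 0.12 in D2-like Slc32a1-Cre nuclei. Pdyn had -0.01, 0.08 and -0.06. The patch genes that were above were Asic4, an ion channel gene, in D1-like Oprm1-Cre nuclei (0.19), the tachykinin gene Tac1 in D1-like Slc32a1-Cre nuclei (0.12) and Lypd1 in D2-like Slc32a1-Cre nuclei (0.18), a different gene each time. In the Slc32a1-Cre D1-like nuclei this count depended on depth, as the thinned count above shows.

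Of the later activity genes, Rgs2, a regulator of G protein signalling, was above in all 3 groups with 0.22, 0.19 and 0.23. Vgf was above in D1-like Slc32a1-Cre nuclei (0.16). The counts were 1 of 7, 2 of 6 and 1 of 6. Of the inducing factors, Mef2d (0.21) and Crtc1 (0.14) were above in D1-like Oprm1-Cre nuclei, 0 of 9 in D1-like Slc32a1-Cre nuclei, and Mef2c (0.16) in D2-like Slc32a1-Cre nuclei. Rxrb was above in D2-like Slc32a1-Cre nuclei (0.19), and 0 of 2 and 0 of 3 retinoid X receptors were above in the D1-like groups. The 24 D2-like Oprm1-Cre nuclei had 0 of 12 immediate early and 0 of 10 patch genes above a 95th percentile of 0.34, where 5% of 9357 genes lay. The rho of Arc was 0.19 in those nuclei and that of Egr1 was 0.27, while Rxrg was above with 0.40.

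**Figure D3:**
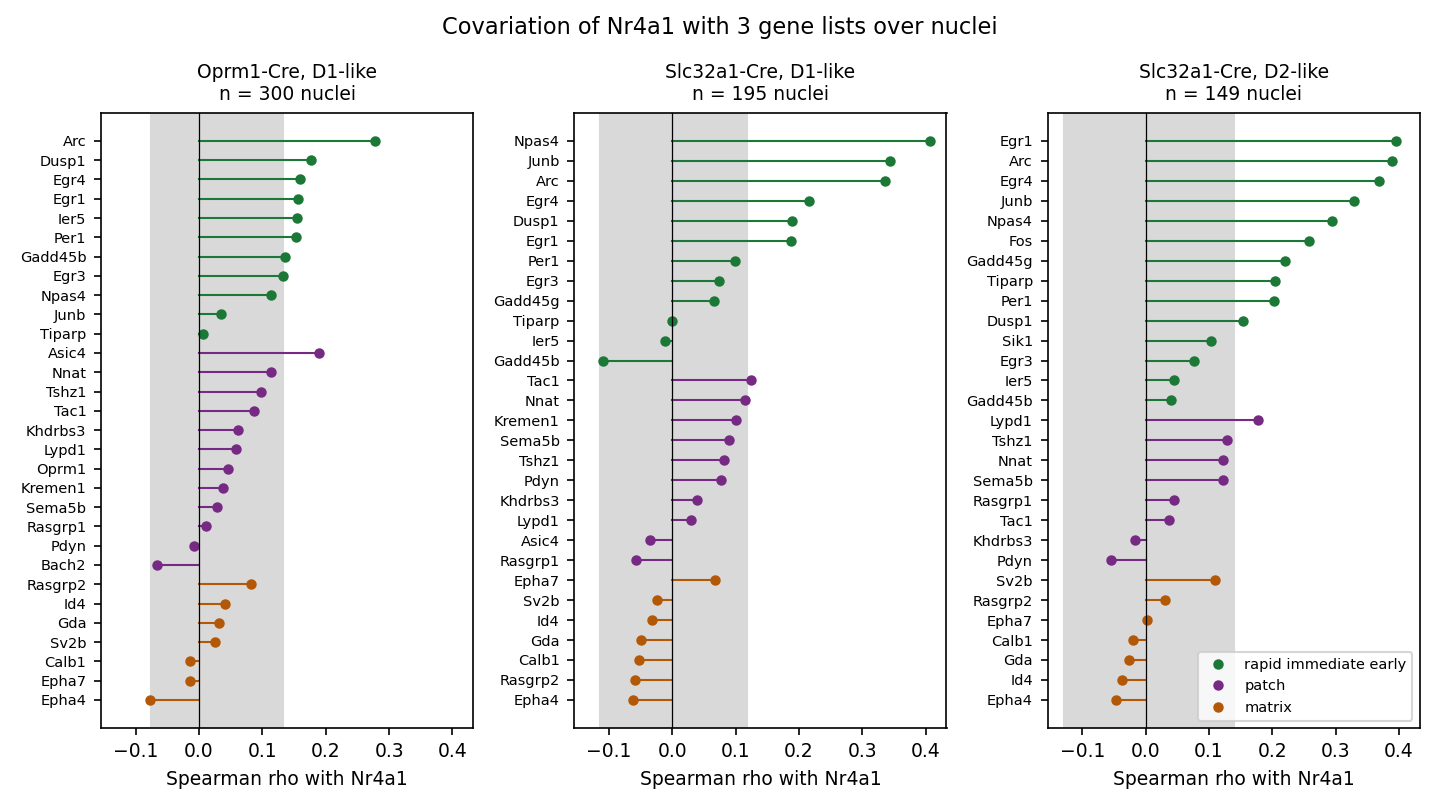
Spearman rho of each tested immediate early, patch and matrix gene with Nr4a1 over the nuclei of 3 groups; the grey band runs from the 5th to the 95th percentile of all genes tested in that group. Points right of the band number 7 of 11, 6 of 12 and 10 of 14 for immediate early genes and 1 of 12, 1 of 10 and 1 of 8 for patch genes.

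Among the 6657 genes with a read in at least 20% of D1-like nuclei of each plate, the 5 with the highest rho with Nr4a1 were not shared between plates. In Oprm1-Cre nuclei they were Ppp1r16b (0.28), Myl12b (0.26), Srpk1 (0.25), Arl1 (0.22) and Rrn3 (0.22), which encode a phosphatase subunit, a myosin light chain, a splicing factor kinase, a Golgi GTPase and an RNA polymerase I factor, and all 5 lay between -0.03 and -0.00 in Slc32a1-Cre nuclei. In Slc32a1-Cre nuclei they were Junb (0.34), Rps21 (0.29), Spata13 (0.26), Men1 (0.25) and Dusp6 (0.24), of which Rps21 encodes a ribosomal protein and Men1 the nuclear protein menin. By the mean over both plates the order was Dusp6, Rgs2, Ntrk2, Junb and Spata13. Dusp6, a phosphatase of ERK and itself induced by ERK, had 0.19 and 0.24 in D1-like Oprm1-Cre and Slc32a1-Cre nuclei, and 0.23 in D2-like Slc32a1-Cre nuclei. Ntrk2, the receptor of the growth factor BDNF, had 0.17 and 0.21 in the D1-like groups. Arc was not eligible because 16.7% of D1-like Oprm1-Cre nuclei had a read.

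Co-detection gives these relations in counts of nuclei, and it is not independent of the correlations. A gene was counted when the interval of the share of nuclei with Nr4a1 lay higher in nuclei with the gene than in nuclei without it. In D1-like Oprm1-Cre nuclei this held for 2 of 11 immediate early genes (Egr1 and Arc) and 1 of 11 patch genes (Asic4), beside 1.71% of 9670 genes. In D1-like Slc32a1-Cre nuclei it held for 3 of 12 (Junb, Arc and Npas4) and 0 of 9, beside 0.215% of 9296 genes, and in D2-like Slc32a1-Cre nuclei for 5 of 14 (Fos, Egr1, Egr4, Arc and Npas4) and 0 of 8, beside 0.209% of 9100 genes. Among the 24 D2-like Oprm1-Cre nuclei it held for 0 of 12 and 0 of 9, beside 0.0436% of 9167 genes. Most members of both lists thus had intervals that overlapped. Arc is given as the gene at or near the highest rho, so its values describe that relation in nuclei. In D1-like Oprm1-Cre nuclei Nr4a1 was read in 30 of 50 nuclei with Arc (60%, 45.2 to 73.6) and in 78 of 250 nuclei without it (31.2%, 25.5 to 37.3). In D1-like Slc32a1-Cre nuclei it was read in 13 of 42 nuclei with Arc (31%, 17.6 to 47.1) and in 12 of those without (7.84%, 4.12 to 13.3). Among D2-like Slc32a1-Cre nuclei it was read in 14 of 32 with Arc (43.8%, 26.4 to 62.3) and in 12 of those without (10.3%, 5.41 to 17.2). The intervals with and without Arc did not overlap in any of the 3 groups. After thinning to 50000 reads the shares with and without Arc were 63% and 24.6% in D1-like Oprm1-Cre, 31.4% and 5.03% in D1-like Slc32a1-Cre, and 44.4% and 10.7% in D2-like Slc32a1-Cre nuclei. The summed level of Nr4a1 in D1-like nuclei with and without Arc was 288.8 and 39.5 CPM on the Oprm1-Cre plate, and 47.7 and 5.08 CPM on the Slc32a1-Cre plate.

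Patch genes differed among themselves. In D1-like Oprm1-Cre nuclei Nr4a1 was read in 42.2% of those with Asic4 (35.3 to 49.4) and in 23.8% of those without it (15.9 to 33.3), while with and without the immediate early gene Junb the shares were 36.4% and 35.8%. The summed level of Nr4a1 in these nuclei was 127.4 CPM with Junb and 59.3 CPM without it. Nr4a1 was read in 39.5% of D1-like Oprm1-Cre nuclei with Sema5b (32.7 to 46.6) and in 29% without it (20.4 to 38.9), and in D1-like Slc32a1-Cre nuclei in 17.1% with (6.56 to 33.6) and 11.9% without (7.30 to 17.9). The intervals overlapped in both plates. On the Oprm1-Cre plate the summed level ran the other way from the shares, with 75.7 CPM in nuclei with Sema5b and 97.1 CPM in nuclei without it. Npas4 separated nuclei on the Slc32a1-Cre plate, with Nr4a1 in 11 of 23 D1-like nuclei with Npas4 (47.8%, 26.8 to 69.4) and in 14 of those without (8.14%, 4.52 to 13.3). On the Oprm1-Cre plate the shares were 48.6% (31.9 to 65.6) and 34.2% (28.5 to 40.3), which overlapped.

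The nuclei were also sorted by their Nr4a1 level, with 100 CPM as the line for a high level. On the Slc32a1-Cre plate 9 D1-like nuclei had a high level, and of these 7 had Arc, 6 had Npas4 and 8 had Junb. Of the 170 D1-like Slc32a1-Cre nuclei without Nr4a1, 29 had Arc, 12 had Npas4 and 60 had Junb. The same 9 nuclei also leaned to the patch: 4 of 9 had Sema5b, against 29 of 170 without Nr4a1, and their median patch score was 0.74 against -2.92. With 9 nuclei, activity and patch leaning could not be separated there. In the 16 D1-like Slc32a1-Cre nuclei with a lower level, 6 had Arc, 5 had Npas4, 10 had Junb and 2 had Sema5b. Their median patch score was -3.54, so these nuclei did not lean to the patch. The intervals of these shares overlapped those of the nuclei without Nr4a1.

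On the Oprm1-Cre plate 51 D1-like nuclei had a high level of Nr4a1. Of these 19 had Arc (37.3%, 24.1 to 51.9), against 20 of the nuclei without Nr4a1 (10.4%, 6.48 to 15.6). Sema5b was read in 31 of the 51 (60.8%, 46.1 to 74.2) and in 63% of those without Nr4a1 (55.8 to 69.9), with intervals that overlapped. In the 57 D1-like Oprm1-Cre nuclei with a lower level, Sema5b was read in 48 (84.2%, 72.1 to 92.5). This interval lay above that of the nuclei without Nr4a1. Arc was read in 11 of the 57 (19.3%), and its interval overlapped that of the nuclei without Nr4a1. The median patch score was 1.39 with a lower level, 1.14 with a high level and 0.69 without Nr4a1. Fos was read in 0 of the 51 nuclei and in 1 of 300 D1-like Oprm1-Cre nuclei, while 3 of the 9 high D1-like Slc32a1-Cre nuclei had it. Nr4a1 and Arc were therefore present without Fos in nearly all Oprm1-Cre nuclei that had them, and the part of the plate in this was not tested.

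A patch score (mean log2(CPM + 1) of the patch genes minus that of the matrix genes) and an activity score (mean over the rapid immediate early genes) were given to each nucleus, and no Nr4a gene entered either. Tac1, a D1 marker of the class call, entered the patch score. The rho of Nr4a1 with the activity score was 0.27 in D1-like Oprm1-Cre nuclei, 0.32 in D1-like Slc32a1-Cre nuclei and 0.42 in D2-like Slc32a1-Cre nuclei. With the patch score it was 0.06, 0.07 and 0.03. Depth moved with some of these: the activity score had a rho of 0.41 and 0.45 with the number of genes with a read in the D1-like groups, and Nr4a1 had 0.19 and -0.02. Adjusted for reads and genes per nucleus, the rho of Nr4a1 with the activity score was 0.21, 0.37 and 0.47, and with the patch score 0.11, 0.07 and 0.02.

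D1-like nuclei were then split at the median of each score over both plates. Nr4a1 was highest in the patch-leaning, activity-high nuclei of either plate, at 141.1 CPM for Oprm1-Cre and 67.1 CPM for Slc32a1-Cre (20 nuclei). Patch-leaning, activity-low nuclei had 44.8 CPM for Oprm1-Cre and 8.92 CPM for Slc32a1-Cre (13 nuclei). Matrix-leaning, activity-high nuclei had 66.8 CPM for Oprm1-Cre (35 nuclei) and 10.8 CPM for Slc32a1-Cre (86 nuclei), and matrix-leaning, activity-low nuclei had 34.3 CPM (51 nuclei) and 5.29 CPM (76 nuclei). Within each leaning the activity-high nuclei stood above the activity-low ones, and within each activity level the patch-leaning nuclei stood above the matrix-leaning ones, on both plates. The Poisson intervals overlapped in 1 of these 8 comparisons, that of patch-leaning with matrix-leaning nuclei among activity-low Slc32a1-Cre nuclei.

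The shares of nuclei with a read were less separate than the levels, and their exact intervals overlapped in every one of the same comparisons. On the Oprm1-Cre plate they were 43.4%, 34.3%, 40% and 21.6% in the same order of the 4 groups, and on the Slc32a1-Cre plate 25%, 7.69%, 16.3% and 6.58%. All Nr4a1 of the 13 patch-leaning, activity-low Slc32a1-Cre nuclei came from 1 nucleus, and 1 nucleus held 39% of the reads of the 20 patch-leaning, activity-high ones, and another held 82.1% of the reads of the 76 matrix-leaning, activity-low ones. Among Oprm1-Cre nuclei, 1 nucleus held 45.8% of the reads of the 35 matrix-leaning, activity-high ones, so that level also leaned on a single nucleus. The patch split moved under thinning on the Oprm1-Cre plate: thinned to 50000 reads, the log2 ratio of patch-leaning over matrix-leaning was 0.20, against 0.96 with all reads. Scores and median were taken anew from the thinned reads, so depth and a changed split cannot be told apart there. The ratio was 0.99 with at least 100000 reads per nucleus and 0.66 with 100000 to 300000 reads. On the Slc32a1-Cre plate the log2 ratio was 2.0, and 0.81 without the 3 nuclei with the most Nr4a1 in each part. The ratio of activity-high over activity-low was 1.48 on the Oprm1-Cre plate and 1.29 on the Slc32a1-Cre plate. Of 495 D1-like nuclei, 29 lay within 0.25 of the patch line and many more within 0.25 of the activity line.

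The difference between plates was present in the summed level of each of the 4 groups. Nr4a1 was 2.10-fold higher on the Oprm1-Cre plate in patch-leaning, activity-high nuclei (1.85 to 2.39) and 5.02-fold higher in patch-leaning, activity-low nuclei (3.07 to 8.83). In matrix-leaning nuclei it was 6.21-fold higher with high activity (5.21 to 7.42) and 6.49-fold higher with low activity (4.97 to 8.58). These intervals cover counting of reads only, and in the patch-leaning Slc32a1-Cre groups of 20 and 13 nuclei 1 nucleus held 39% or all of the reads. The fold was smallest in the patch-leaning, activity-high group, against 5.58 over all D1-like nuclei, and the part of the scores in the difference between plates was not tested. The intervals of the shares of nuclei overlapped between plates in all 4 groups.

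**Figure D4:**
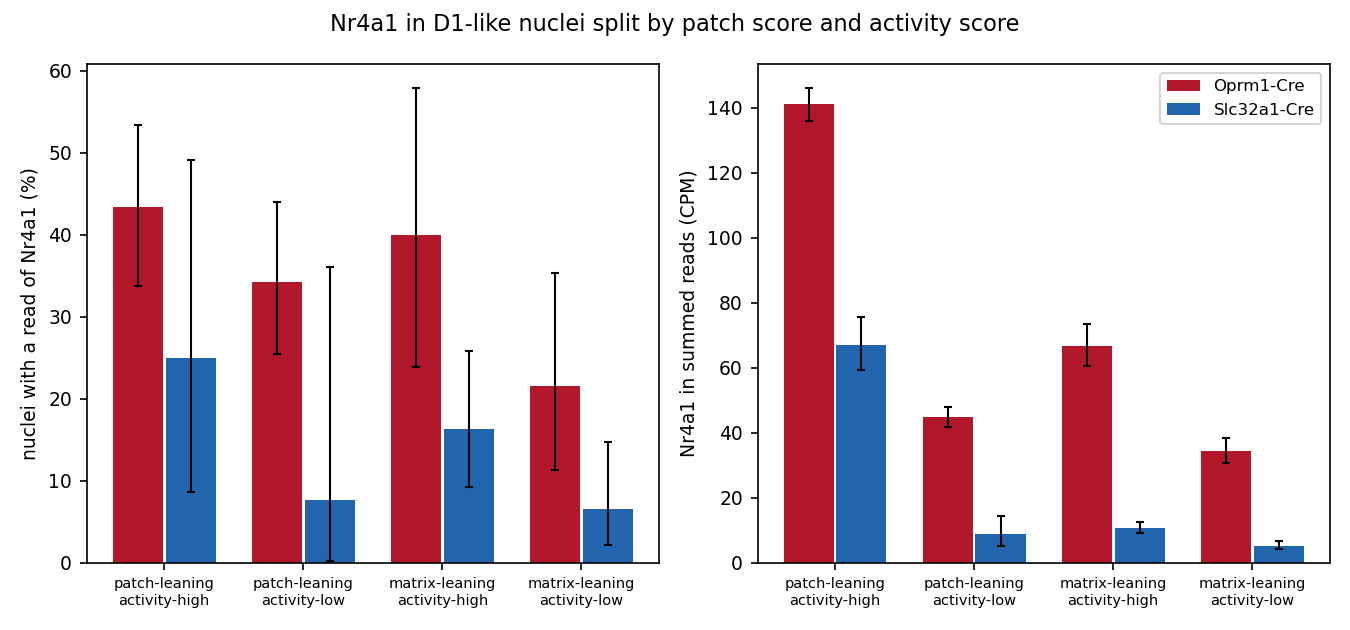
Share of D1-like nuclei with a read of Nr4a1 (left, exact 95% binomial intervals) and Nr4a1 in summed reads (right, CPM, exact 95% Poisson intervals) in the 4 groups made by the patch and activity scores. The Oprm1-Cre bars (red) reach 141.1 CPM and the Slc32a1-Cre bars (blue) 67.1 CPM in the patch-leaning, activity-high group, and the Oprm1-Cre bar is higher in all 4.

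The activity split was also seen in D2-like Slc32a1-Cre nuclei. Nr4a1 was read in 21 of 73 activity-high nuclei (28.8%, 18.8 to 40.6) at 55.9 CPM, and in 5 of 76 activity-low nuclei (6.58%, 2.17 to 14.7) at 14.99 CPM. The intervals of these shares did not overlap. In the activity-low group 1 nucleus held 73.1% of the Nr4a1 reads, and in the activity-high group 1 nucleus held 28.6%. In the 18 activity-high and 6 activity-low D2-like Oprm1-Cre nuclei the levels were 104.7 and 64.98 CPM, the second from 1 nucleus.

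Markers of other cell types were present in D1-like nuclei, and some of them moved with Nr4a1. The 5 markers of oligodendrocyte precursors were higher in nuclei with Nr4a1 on both plates, with sums of 102.7 CPM with and 80.9 CPM without it for Oprm1-Cre and 65.5 and 33.6 CPM for Slc32a1-Cre. In D2-like Slc32a1-Cre nuclei these sums were 72.9 CPM with and 25.4 CPM without Nr4a1, and in D2-like Oprm1-Cre nuclei 0 and 33.8 CPM. The 13 interneuron markers were also higher with Nr4a1 in D1-like nuclei, at 42.3 and 28.3 CPM for Oprm1-Cre and 55.9 and 38.3 CPM for Slc32a1-Cre, while D2-like Slc32a1-Cre nuclei had 12.3 CPM with and 24.7 CPM without it. D2-like Oprm1-Cre nuclei had 114.2 CPM of these markers with and 40.6 CPM without Nr4a1. The sums of the other glial lists lay on different sides in the D1-like nuclei of the plates. The summed level of 7 oligodendrocyte markers was 248.2 CPM in D1-like Oprm1-Cre nuclei with Nr4a1 and 441 CPM in those without it, but 699 and 264.3 CPM for Slc32a1-Cre. The 7 astrocyte markers summed to 145.7 and 129.5 CPM for Oprm1-Cre and to 26.5 and 130.9 CPM for Slc32a1-Cre. The 7 microglia markers, of which 2 were at 0 on the Oprm1-Cre and 1 on the Slc32a1-Cre plate, summed to 14.9 and 4.73 CPM for Oprm1-Cre and to 0.612 and 7.38 CPM for Slc32a1-Cre. Vessel and excitatory neuron markers stayed under 2 CPM in the D1-like nuclei of both plates. The part of these cells in the Nr4a1 values was not tested.

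The promoter cores were counted over the lists as well. Of the rapid immediate early genes with a promoter window, 12 of 18 (66.7%) held at least 1 core, and of the later activity genes 5 of 6 did. Of the patch genes 2 of 9 (22.2%) held one and of the matrix genes 2 of 6, beside 23% of all 27025 genes. Junb had 1 core, and Npas4, Egr4 and Fos had 2 each, while Sema5b, Pdyn and Dusp6 had 0. Nr4a2 and Nr4a3 had as many cores as Nr4a1 and more than Junb, Npas4, Egr4 or Fos. Nr4a2 and Nr4a3 had almost no reads in these nuclei, and the part of the cores in the levels was not tested.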

How the data were processed

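The authors deposited unnormalized counts, 1 whole number for each gene in each well. Per the submitters' processing notes, mm10, SAMtools and Seurat were used; the aligner, counter and strand setting were not stated there. The Slc32a1-Cre labels name a table under another plate number, so wells were assigned by column names, each of which ends 1 sample title. All 18878976 values of the joint table equal those of the genotype tables. Columns of other series numbered 0. Each genotype was treated as 1 sample, and no test was made.

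Kept nuclei were clustered with scanpy 1.11.5 and leidenalg 0.10.2 (2000 variable genes, scaled, 30 components, 15 neighbours, resolution 1) and named from markers. SPN-like nuclei (spiny projection neurons) were split where the mean log2(CPM + 1) of 7 D1 and 7 D2 markers differed by more than 2. The Oprm1-Cre and Slc32a1-Cre plates gave 300 and 195 D1-like and 24 and 149 D2-like nuclei. Of 495 D1-like nuclei 177 lay within 0.25 of the activity line. No doublet caller was run, and 1 alternative left out 34 possible doublets. Symbols absent from the tables were matched through older names. Other tools were Python 3.11.15, numpy 2.4.6, scipy 1.17.1 and pandas 2.3.3. The code was checked on simulated data. Reads carry no molecular identifiers, so Poisson intervals cover the counting of reads and not of molecules. They do not cover the spread between nuclei. Named genes were the 3 members, the 5 genes with the highest rho with Nr4a1 in each plate and by mean, and list members at the ends of the order or past the fold. The members and lists were chosen with earlier results of these data known, and the 95th percentile, the 100 CPM line and the choice of promoter motif were chosen after values were seen.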

Additional observations from a re-analysis of the deposited data

Results flagged for a closer look

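Tshz1, a patch-list gene set beside Nr4a1, moved in opposite directions in the 2 classes. Its log2 ratio of the Oprm1-Cre over the Slc32a1-Cre plate was -1.89 in D2-like nuclei (3 reads in the Oprm1-Cre plate and 483 in the Slc32a1-Cre plate) and 1.39 in D1-like nuclei (34.5 and 10.1 CPM). The difference between the classes was not tested. Nr4a1 had 2.15 and 1.27 in D1-like and D2-like nuclei, the same direction in both.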

How the results depend on the processing

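Of 200 alternatives computed, 41 moved a value by more than the limit set for it and the rest did not, and the sign of a value past the fold line never turned. Values of Nr4a1 below are log2 ratios. Between plates in D1-like nuclei (2.15) it was 1.76 as a mean over nuclei, 2.37 without the 3 top nuclei, 2.40 with 1 CPM added and 2.93 with a difference of 4 between marker scores. In D2-like nuclei (1.27) it was 0.82 without the 3 top nuclei. For D1-like over D2-like nuclei the Oprm1-Cre value (-0.17) was -0.55 as a mean over nuclei, 0.77 without the 3 top nuclei and 0.0123 with a difference of 4, and the Slc32a1-Cre value (-1.05) was -0.78 without the 3 top nuclei, -1.23 with 1 CPM added and -1.70 with a difference of 4. For patch-leaning over matrix-leaning nuclei the Oprm1-Cre value (0.96) was 0.20 thinned, 1.16 without the 3 top nuclei of each part and 0.66 with 100000 to 300000 reads only, and the Slc32a1-Cre value (2.0) was 1.26 with a split within the plate, 2.40 with 1 CPM added, 0.81 without the 3 top nuclei and 1.56 with 100000 to 300000 reads. For activity-high over activity-low nuclei the Oprm1-Cre value (1.48) was 1.30 without the 3 top nuclei and 1.70 with 100000 to 300000 reads, and the Slc32a1-Cre value (1.29) was 1.73 with 1 CPM added, 0.96 with a score without Arc and 1.6 without the 3 top nuclei. Immediate early genes above the 95th percentile fell to 3 of 5, 2 of 4 and 4 of 6 (D1-like Oprm1-Cre, D1-like Slc32a1-Cre, D2-like Slc32a1-Cre) where a read in at least 25% of nuclei was asked, because fewer genes were tested. Patch genes numbered 2 in D1-like Oprm1-Cre nuclei adjusted for depth. In D1-like Slc32a1-Cre nuclei they numbered 5 thinned, 2 with at least 100000 reads, 0 with classes from each nucleus alone and 3 by Pearson's r. In D2-like Slc32a1-Cre nuclei they numbered 2 without possible doublets, 3 by Pearson's r and 0 with the 25% filter. Nuclei with both Nr4a1 and Nr4a3 in the Oprm1-Cre plate numbered 1 after thinning. Other causes were not tested. The score split without Arc, without top nuclei and by depth, and the clusters without Nr4a genes, were chosen after seeing the data. Correlations of Nr4a1 with Nr4a3 under other measures were not run. No paired analysis was possible because each genotype is 1 plate and no test was made. A transcript at a few reads in 7 nuclei is near the limit of this depth.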
